A study of Mus musculus with 22 samples.

Results

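The genes described here are 10 activity-regulated immediate early genes: Fos, Fosb, Jun, Junb, Egr1, Egr4, Npas4, Nr4a1, Nr4a2 and Ier2. They were taken by gene symbol from a table of 57010 genes, each symbol matched 1 row, and all 10 passed the filter on low values that left 16756 genes for testing. RNA was measured in pancreatic islets of 22 male mice, 1 mouse per library. Their age is given as 5.5 weeks by the series' own description and as 5 to 6 weeks in the table's header. Wild-type (WT) mice were compared with mice heterozygous (Het) for the S64F change in MAFA, a factor that drives insulin gene transcription, on a background called C57 and on one called Mixed. Each background was represented by 5 WT and 6 Het animals. The strains of the Mixed background, how the allele was made and the handling of the islets before lysis are not given in the sources used here.

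Immediate early genes are transcribed within minutes of a stimulus from transcription factors that are already in the cell, so they need no new protein to be switched on. In beta cells, glucose closes potassium channels, the membrane depolarises, and the calcium that enters acts with cyclic AMP and the ERK kinases on CREB, SRF and MEF2, which bind at these genes. FOS and JUN proteins pair to form the AP-1 factor, EGR proteins are zinc finger factors, NPAS4 is a factor induced by calcium in neurons and beta cells, and NR4A1 and NR4A2 are orphan nuclear receptors. IER2 is a small nuclear protein whose gene is induced together with them.

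The DNA in front of these genes was read from RefSeq promoter windows of the GRCm38.p6 build, which run from 250 bases before the annotated start to 50 bases after it. Windows were matched for 8 of the 10 genes; Egr1 and Ier2 had none. The CRE half-site TGACG, the core of the site that CREB binds, was found on either strand in 7 of the 8 (Fos, Fosb, Junb, Egr4, Npas4, Nr4a1 and Nr4a2), where 34.8% of 11074 tested genes with a window held it. TATAAA was found on either strand in 3 of the 8 (Fos, Junb and Nr4a2), against 9.01% of the tested genes. The Junb match began at the annotated start. The Nr4a2 match lay on the other strand, with its first base 164 bases before the start. The full CRE TGACGTCA (3.58% of tested genes), the CArG box bound by SRF (1.61%), the AP-1 site TGANTCA (6.06%) and TGCTGAC, part of the MAF recognition element (4.51%), were found in 0 of the 8. A full CRE holds 1 half-site on each strand. Nr4a1, Fosb, Egr4 and Junb passed a test below. The 250 bases before the start are shown for these except Junb, and for Fos, the most abundant of the 10. They read 5′ to 3′ on the strand of the gene, with CRE half-sites (TGACG, or CGTCA on the other strand) and TATAAA in capitals.
Nr4a1, chr15:101266596-101266845, plus strand: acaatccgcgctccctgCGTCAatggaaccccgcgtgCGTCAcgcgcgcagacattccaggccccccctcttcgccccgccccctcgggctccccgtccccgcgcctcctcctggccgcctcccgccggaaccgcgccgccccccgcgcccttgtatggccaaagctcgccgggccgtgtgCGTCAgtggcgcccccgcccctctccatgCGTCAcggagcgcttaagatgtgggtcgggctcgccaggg
Fosb, chr7:19310046-19310295, minus strand: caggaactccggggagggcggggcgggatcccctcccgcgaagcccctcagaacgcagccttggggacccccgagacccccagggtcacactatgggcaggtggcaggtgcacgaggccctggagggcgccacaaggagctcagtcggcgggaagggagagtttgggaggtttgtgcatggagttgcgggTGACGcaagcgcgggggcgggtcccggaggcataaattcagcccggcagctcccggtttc
Egr4, chr6:85513590-85513839, minus strand: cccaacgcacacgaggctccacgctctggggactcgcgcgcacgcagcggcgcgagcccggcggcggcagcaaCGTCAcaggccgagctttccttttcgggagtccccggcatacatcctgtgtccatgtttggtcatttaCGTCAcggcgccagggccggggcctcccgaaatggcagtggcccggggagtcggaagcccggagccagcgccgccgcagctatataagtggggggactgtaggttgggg
Fos, chr12:85473640-85473889, plus strand: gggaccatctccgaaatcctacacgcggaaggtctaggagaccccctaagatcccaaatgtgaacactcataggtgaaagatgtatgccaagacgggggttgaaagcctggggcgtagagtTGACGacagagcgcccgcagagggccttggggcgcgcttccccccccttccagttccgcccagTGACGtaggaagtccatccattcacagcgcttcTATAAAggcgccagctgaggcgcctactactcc
The Nr4a1 window held 4 half-sites, whose first bases lay 233, 213, 69 and 40 bases before the start. The Egr4 window held 2, at 177 and 109 bases, and the Fosb window held 1, at 60 bases. In the Fos window the half-sites began 129 and 66 bases before the start, and TATAAA began 33 bases before it. Such matches describe the letters only.

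Most of the 10 mRNAs were abundant in every library. Values are TPM, a transcript abundance unit that divides by transcript length and scales each library to 1000000, so genes can be compared per length and the sequencing depth is unknown. By mean TPM over the 22 libraries, Fos ranked 21 among all genes of the table, Fosb 32, Jun 33, Egr1 35, Junb 69, Ier2 173 and Nr4a1 240. Nr4a2 ranked 2642, Npas4 3851 and Egr4 9597. Together they made up between 0.446% and 1.28% of all TPM in a library, with a median of 0.689%.

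In the order of their medians, Fos stood at 2599 TPM (range 1678 to 3921), followed by Jun at 1012, Egr1 at 1006, Fosb at 815, Junb at 607, Ier2 at 295 and Nr4a1 at 221. The ranges of Jun (563 to 2070), Egr1 (631 to 1423) and Fosb (325 to 3285) overlapped, so these neighbours were not separated by their spread. Nr4a2 at 37.0 TPM and Npas4 at 23.9 also overlapped in range. Within a library Nr4a2 was the higher, except in C57 Het replicate 3 and Mixed WT replicates 1 and 3. Egr4 was lowest at 4.11 TPM. The factor between the highest and the lowest library was 2.25 for Egr1, 2.34 for Fos, 2.75 for Junb, 10.1 for Fosb and 25.1 for Egr4. The SD within groups on the log2(TPM + 1) scale was at the 77.9th percentile of all tested genes for Fos and higher for the other members, up to the 98.8th for Egr4.

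**Figure D1:**
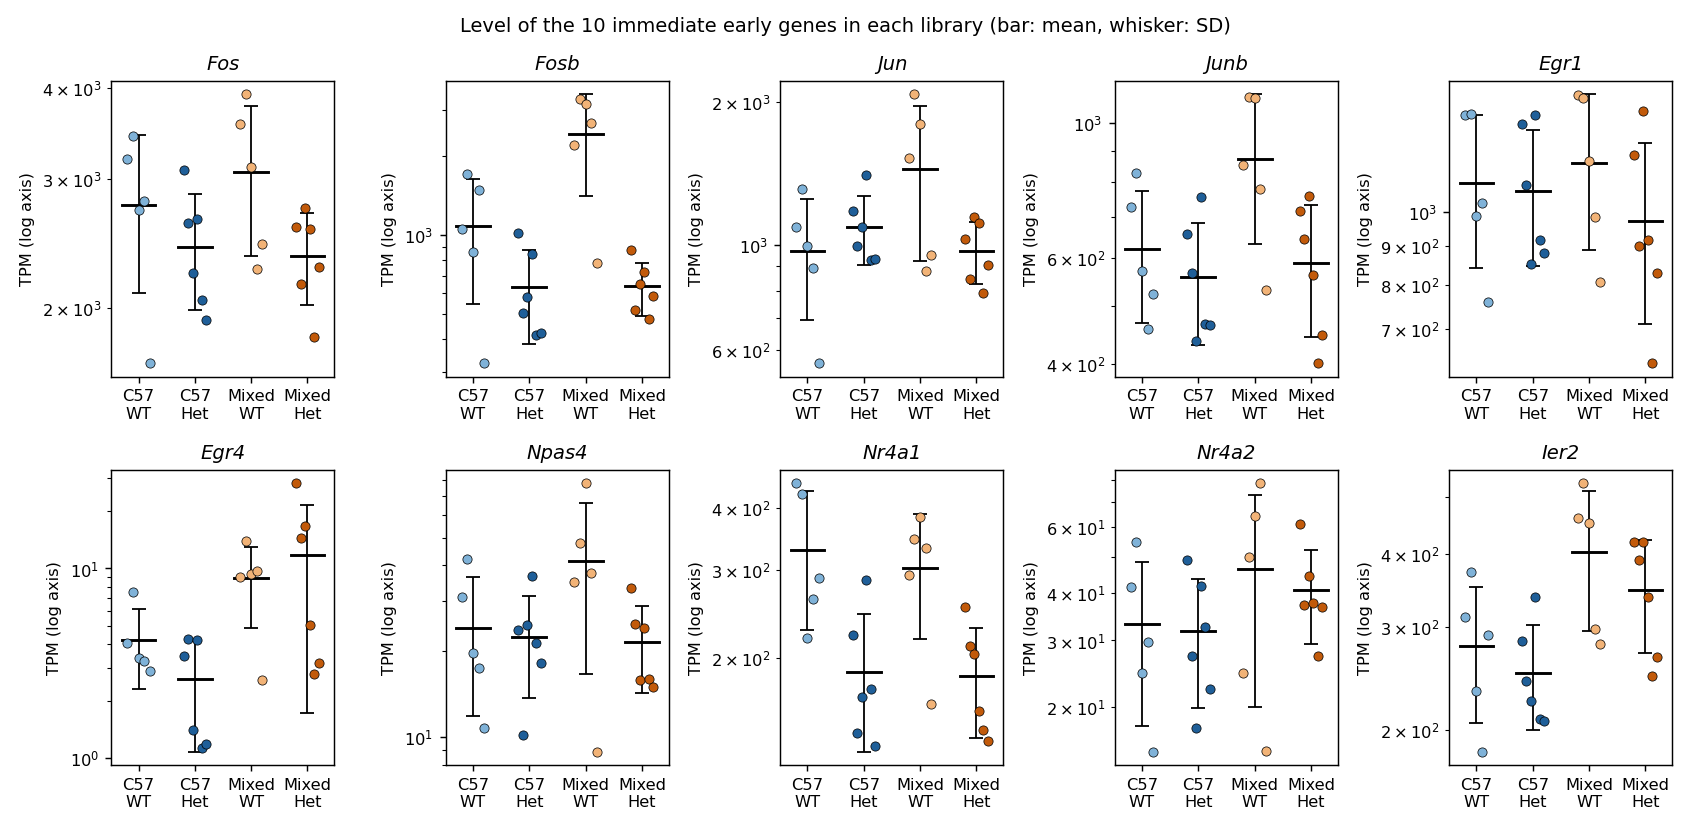
TPM of each of the 10 genes in each of the 22 libraries (points, log axis), by group on the horizontal axis, with the group mean as a bar and the SD as a whisker. Fosb lies between 2207 and 3285 TPM in 4 of the 5 Mixed WT libraries and between 480 and 877 TPM in the 6 Mixed Het libraries, and Nr4a1 is lower on average in Het on both backgrounds.

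Mafa, the mutated gene, was lower in every Het library than in every WT library of its background, at 26.5% of the WT mean in C57 and 25.4% in Mixed. Summed markers of several cell types differed between genotypes as well. The beta-cell sum (6 markers) ranged from 321160 to 375439 TPM in C57 Het against 367772 to 447541 in C57 WT, and from 247574 to 339187 in Mixed Het against 397711 to 474424 in Mixed WT. Most of this sum was Ins1 and Ins2, whose share of all TPM averaged 31.6% in C57 Het against 39.3% in C57 WT. In Mixed it was 27.4% against 39.9%. Of 6 tested beta-cell markers 1 was lower in C57 and 4 were lower in Mixed, with 0 higher on either background. Among all tested genes 38% passed in C57 (26.4% higher, 11.6% lower) and 44.1% in Mixed (30.7% higher, 13.5% lower). The sum of 7 alpha, delta and PP cell markers was 97425 to 146662 TPM in C57 Het against 38788 to 81785 in WT, and 119272 to 173264 in Mixed Het against 39759 to 68985 in WT. The immune sum (7 markers) was 26.1 to 35.8 TPM in C57 Het against 36.3 to 58.9 in WT, and 47.2 to 85.1 in Mixed Het against 32.5 to 42.6 in WT. In C57 only 1 of 5 tested immune markers was lower and 0 were higher, with a median log2 change of -0.01. In Mixed 4 of 5 were higher and 1 was lower. The mesenchymal sum (7 markers) was 64 to 365 TPM in Mixed Het against 38.3 to 65.3 in WT, and overlapped widely in C57 (44.3 to 69.4 against 42.2 to 116). The acinar sum averaged 216 TPM in C57 Het against 77.2 in WT, with 4 of 4 tested markers higher, and 226 against 140 TPM in Mixed, with 1 of 4 higher. The ductal sum averaged 113 TPM in Mixed Het against 87.0 in WT, with 4 of 4 tested markers higher, and 102 against 104 TPM in C57, with 1 of 4 higher. Acinar and ductal sums overlapped between genotypes on both backgrounds. Mitochondrial transcripts made up less of the TPM in Het, with group means of 4.12% against 6.58% in C57 and 3.24% against 6.04% in Mixed. None of these markers was at 0 in all libraries, and Ptf1a, Cftr and Cd3e were below 1 TPM in every library. In whole islets, fewer cells of a type and less RNA per cell cannot be told apart.

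In C57 mice Nr4a1 was the 1 member of 10 that passed the test between genotypes, and it was lower in Het. Among all 16756 genes 38% passed, 26.4% higher and 11.6% lower in Het, so a single call among 10 is not more than the background. The other 9 differences did not pass, and 9 of the 10 members had a lower mean in Het, where 59.0% of all tested genes were higher. The differences of Nr4a2 (-0.02), Egr1 (-0.03) and Npas4 (-0.05) were near 0 and changed sign when some single replicates were left out. The members also varied together across mice, so the count is not one of independent genes. The median log2 change of the 10 members was -0.14, where that of all tested genes was 0.08.

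On the Mixed background 3 of the 10 members passed, Fosb, Nr4a1 and Junb, all lower in Het. There 44.1% of all tested genes passed, 30.7% higher and 13.5% lower. The count was 5 under each of the 3 other scalings, with Fos and Jun added. It was 0 with the immune, endothelial and mesenchymal scores as covariates, where 16.3% of all tested genes passed (2003 higher, 730 lower). When 1 library was left out the count was between 1 and 5. It was 1, Fosb, without Mixed WT replicate 2 or 3 or Mixed Het replicate 6, and 5 without Mixed WT replicate 5. It was 2 without Mixed WT replicate 1 or Mixed Het replicate 5, and 2 with no filter on low values. The median log2 change of the 10 members was -0.43, against 0.10 for all tested genes. Of the 10 members 8 were lower, where 60.7% of all tested genes were higher. Median-of-ratios scaling moved the median of all genes in this comparison to -0.01 and the calls over all genes from 5137 higher and 2258 lower to 3582 higher and 3745 lower, and the 2 members with a higher value, Egr4 and Nr4a2, turned lower. In C57 the same scaling moved the calls from 4422 higher and 1940 lower to 3521 and 3063. The Het and WT values of every member overlapped on both backgrounds. Among all tested genes they did not overlap for 21% in C57 (15.9% higher, 5.04% lower in Het) and 23.6% in Mixed (17.9% higher, 5.76% lower).

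**Figure D2:**
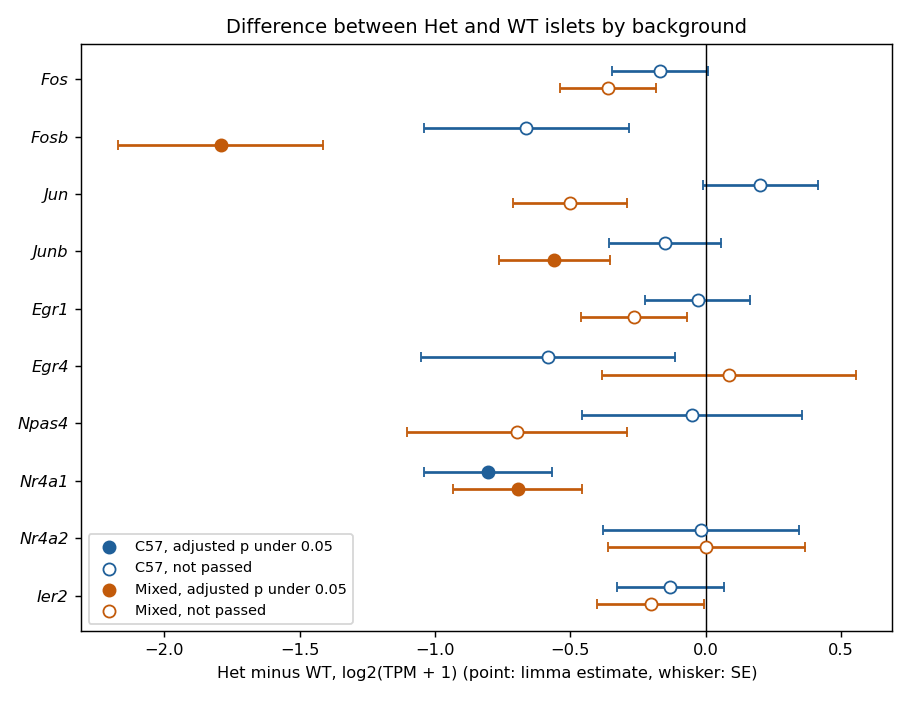
Het minus WT for each member on the log2(TPM + 1) scale (points, limma estimates; whiskers, SE), for C57 in blue and Mixed in orange, with filled points where the adjusted p was under 0.05. Fosb in Mixed lies farthest left at -1.79, and Nr4a1 is filled in both backgrounds.

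Nr4a1 (ENSMUSG00000023034), the orphan receptor that CREB switches on after cyclic AMP or calcium signals, was lower in Het islets on both backgrounds. In C57 WT its level was 448, 427, 220, 262 and 290 TPM in replicates 1 to 5, and in the 6 C57 Het libraries the lowest was 134, the median 170 and the highest 287 TPM. In Mixed WT it was 294, 346, 384, 332 and 162 TPM, and in Mixed Het the lowest was 137, the median 180 and the highest 254 TPM. All 12 Het libraries were below the WT mean of their background. In C57 4 of the 6 Het libraries were below every WT library, and in Mixed 3 of 6 were. The means were 329 ± 102 (SD, n = 5) against 188 ± 57.9 TPM (n = 6) in C57 and 304 ± 85.6 (n = 5) against 184 ± 46.0 TPM (n = 6) in Mixed, so Het stood at 57% and 60.7% of WT.

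On the log2(TPM + 1) scale the Nr4a1 difference was -0.80 (SE 0.24) in C57, with a limma adjusted p of 0.0108 and a two-sided exact permutation p of 0.0195. In Mixed it was -0.69 (SE 0.24), with an adjusted p of 0.0212 and an exact p of 0.0281, where 462 splits allow no p below 0.00216. The interaction, which tests the difference between the backgrounds, was 0.11 (SE 0.34, adjusted p = 0.865). In C57 the difference was -0.68 (adjusted p = 0.0886) without the 3 libraries of highest mitochondrial share (C57 WT replicates 1 and 5 and Mixed WT replicate 4). It was -0.78 (adjusted p = 0.148) with the immune, endothelial and mesenchymal scores as covariates. In Mixed it was -0.63, -0.60, -0.65 and -0.62 when Mixed WT replicate 2, 3 or 4 or Mixed Het replicate 6 was left out, with adjusted p of 0.0516, 0.0656, 0.0525 and 0.0504, so the size of the difference was nearly kept while the call was lost. With the covariates it was -0.33 (adjusted p = 0.625).

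Nr4a2 (ENSMUSG00000026826), its close relative, had means of 33.2 ± 15.4 and 31.8 ± 11.9 TPM in C57 WT and Het and of 46.4 ± 26.4 and 40.8 ± 11.3 TPM in Mixed WT and Het. Its differences of -0.02 (SE 0.36) and 0.00 (SE 0.36) did not pass (adjusted p of 0.975 and 0.997), and the SE was larger than that of Nr4a1. Whether the 2 receptors differed in their response was not tested.

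Fosb (ENSMUSG00000003545), the FOS relative that also gives the stable deltaFosB protein, had the largest difference among the 10. Mixed WT libraries held 2207, 3285, 3162, 2664 and 785 TPM, and Mixed Het libraries held between 480 and 877 TPM with a median of 619. Replicate 5 was the only Mixed WT library within the Het range. C57 WT libraries held 1058, 1712, 859, 1479 and 325 TPM, and C57 Het libraries held between 417 and 1017 TPM with a median of 542, so in C57 the ranges overlapped widely. The order of the means was Mixed WT (2421 ± 1010), C57 WT (1087 ± 543), Mixed Het (639 ± 146) and C57 Het (631 ± 246), and the last 2 did not differ beyond their spread.

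In Mixed the Fosb difference was -1.79 (SE 0.38, limma adjusted p = 0.000654, two-sided exact permutation p = 0.00433), and Het stood at 26.4% of WT. All 6 Het libraries were below the WT mean and 5 of 6 below every WT library. The call held when each replicate was left out in turn, with a range of -2.16 to -1.64, and the adjusted p was 0.0803 (change -1.56) with the 3 marker scores as covariates. In C57 the difference was -0.66 (SE 0.38, adjusted p = 0.173), and without C57 WT replicate 5, the lowest library, it was -1.05 (adjusted p = 0.0221). It was -1.12 (adjusted p = 0.0388) without the 3 libraries of highest mitochondrial share and -0.91 (adjusted p = 0.0254) with sample weights. The interaction of -1.13 (SE 0.53) had an unadjusted limma p of 0.0465 and an adjusted p of 0.186, so a dependence of the Fosb difference on background was not shown. Without Mixed WT replicate 5, the lowest of its group for Fosb, the interaction was -1.49 (adjusted p = 0.0457), and 10.1% of all tested genes passed.

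Fos (ENSMUSG00000021250), the founding member of the family and the partner of JUN in AP-1, was the most abundant in every group. Its means were 2769 ± 678 TPM in WT and 2425 ± 437 in Het on C57, and 3066 ± 710 in WT and 2356 ± 339 in Het on Mixed. The Het difference was -0.17 in C57 (SE 0.18, adjusted p = 0.473). It was -0.36 in Mixed, with the same SE and an adjusted p of 0.102. All 6 Mixed Het libraries were below the Mixed WT mean, and the exact permutation p was 0.0693. Under median-of-ratios scaling the Mixed difference was -0.50 with an adjusted p of 0.0223, and it was 0.10 with the covariates.

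Junb (ENSMUSG00000052837), a JUN relative that forms weaker AP-1 dimers, was lower in Mixed Het islets. Mixed WT libraries held 853, 1104, 1099, 779 and 530 TPM, and Mixed Het libraries held between 402 and 757 TPM with a median of 602. The ranges overlapped, with 2 of 6 Het libraries below every WT library and 6 of 6 below the WT mean. Het stood at 67.3% of WT, a difference of -0.56 (SE 0.21, limma adjusted p = 0.0318, exact permutation p = 0.0498). Without Mixed WT replicates 1, 2 and 3 and Mixed Het replicates 5 and 6 in turn the difference was -0.56, -0.46, -0.46, -0.46 and -0.49, with adjusted p of 0.0514, 0.0912, 0.0958, 0.0825 and 0.0733. With no filter on low values it was again -0.56, with an adjusted p of 0.0702 over more genes. With the marker scores as covariates it was 0.10 (adjusted p = 0.858). In C57 the means were 621 ± 152 and 557 ± 126 TPM, a difference of -0.15 (SE 0.21, adjusted p = 0.594).

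Jun (ENSMUSG00000052684), which encodes the main partner of FOS, was the 1 member with a higher mean in C57 Het. C57 WT and Het were at 970 ± 275 and 1087 ± 181 TPM, a difference of 0.20 (SE 0.21, adjusted p = 0.476). Mixed WT and Het were at 1443 ± 519 and 972 ± 145 TPM, a difference of -0.50 (SE 0.21, adjusted p = 0.0585) with all 6 Het libraries below the WT mean. The interaction was -0.70 (SE 0.30), with an unadjusted limma p of 0.0281 and an adjusted p of 0.141. In Mixed the adjusted p was 0.0180 under median-of-ratios scaling and 0.0220 without Mixed WT replicate 5. With the marker scores as covariates the Mixed difference was -0.12 (adjusted p = 0.842).

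Egr1 (ENSMUSG00000038418), a zinc finger factor induced by glucose in beta cells, had the narrowest range of the 10 over the libraries. Its means were 1092 ± 250 and 1064 ± 216 TPM in WT and Het on C57, and 1158 ± 268 and 970 ± 260 TPM on Mixed. Its differences of -0.03 (adjusted p = 0.922) and -0.27 (adjusted p = 0.279), each with an SE of 0.19, did not pass. Egr4 (ENSMUSG00000071341), a low-abundance relative, did not pass between genotypes, with -0.58 (SE 0.47, adjusted p = 0.342) in C57 and 0.09 (adjusted p = 0.898) in Mixed. C57 WT libraries held 4.02, 7.52, 3.37, 3.24 and 2.86 TPM, and C57 Het libraries between 1.12 and 4.26 with a median of 2.42 TPM. Mixed WT libraries held 8.97, 14.0, 9.37, 9.68 and 2.59 TPM, and Mixed Het libraries between 2.79 and 28.2 with a median of 9.77 TPM. The values of Mixed Het were thus spread over a factor of 10.1, with replicate 1 highest and replicates 5 and 6 near the C57 level.

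Npas4 (ENSMUSG00000045903), a calcium-induced factor, had means of 24.2 ± 12.3 and 22.5 ± 8.76 TPM in C57 WT and Het and of 41.5 ± 24.9 and 21.5 ± 7.21 TPM in Mixed WT and Het. The Mixed difference of -0.70 (SE 0.41) did not pass (limma adjusted p = 0.170, exact permutation p = 0.203), although all 6 Het libraries were below the WT mean. Mixed WT replicate 5 held 8.88 TPM where the other 4 held 35.1 to 77.7 TPM, and without it the difference was -1.16 (adjusted p = 0.00836). Ier2 (ENSMUSG00000053560) had means of 278 ± 72.8 and 251 ± 51.2 TPM in C57 WT and Het and of 404 ± 109 and 347 ± 75.8 TPM in Mixed WT and Het, and its differences of -0.13 (adjusted p = 0.635) and -0.20 (adjusted p = 0.420), each with an SE of 0.20, did not pass.

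The genotype by background interaction passed in 0 of the 10 members by limma, against 7.36% of all tested genes (4.62% above and 2.74% below 0). Fosb and Jun were the 2 members with an unadjusted limma p under 0.05.

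Within WT mice the members were mostly higher on the Mixed background, but none passed the test. Of all tested genes 11.3% passed, 6.3% higher and 4.99% lower in Mixed. The groups overlapped for every member, and did not for 6.12% of all tested genes (2.91% higher, 3.21% lower). The median log2 difference of the members was 0.50, where that of all tested genes was 0.01. Of the 10 members 9 were higher, with Nr4a1 (-0.12, adjusted p = 0.800) the exception, where 52.1% of all tested genes were higher. Fosb was 1.20 higher (SE 0.39, adjusted p = 0.0524), Jun 0.54 (adjusted p = 0.117), Ier2 0.53 (adjusted p = 0.0991) and Junb 0.48 (adjusted p = 0.161), and these 4 had an unadjusted limma p under 0.05. Without Mixed WT replicate 5, in which all 10 members were below their group mean, 5 members passed: Npas4, Fosb at 1.57 (adjusted p = 0.00475), Jun at 0.67, Ier2 at 0.65 and Junb at 0.64. In that fit 14.2% of all tested genes passed (1423 higher, 953 lower). Removing a library in which every member was low raises their Mixed WT means by construction, so these calls are no separate support. This comparison shares the WT libraries with the genotype comparisons above.

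Within Het mice Egr4 was the 1 member that differed between the backgrounds, against 20.5% of all tested genes (13.3% higher and 7.13% lower in Mixed). Its groups overlapped like those of the other members, where 9.85% of all tested genes did not overlap (6.56% higher, 3.28% lower). It was 11.7 ± 10.01 TPM in Mixed Het and 2.60 ± 1.53 TPM in C57 Het, a log2 difference of 1.52 (SE 0.45, limma adjusted p = 0.0185, two-sided exact permutation p = 0.0325 over 924 splits). All 6 Mixed Het libraries were above the C57 Het mean and 4 of 6 above every C57 Het library. Leaving out each replicate in turn gave 1.20 to 1.79, with the highest adjusted p of 0.04999 without Mixed Het replicate 1. With the marker scores as covariates the difference was 3.18 (adjusted p = 0.0374). Several marker sums were also higher in Mixed Het. The mesenchymal sum averaged 171 TPM against 55.0 in C57 Het, with 5 of 6 tested markers higher, and the endothelial sum 480 against 325 TPM, with 3 of 6 higher, both with overlap. The Schwann cell sum averaged 25.96 against 12.4 TPM, with 3 of 4 tested markers higher. The immune sum averaged 58.6 against 31.9 TPM, with 4 of 5 higher and 1 lower. The Schwann and immune sums did not overlap between the groups. The part of these marker sums in the Egr4 difference was not tested. The covariate fit holds the immune, endothelial and mesenchymal scores but not the Schwann score. Its immune score (mean log2(TPM + 1)) was at most 2.80 in C57 Het and at least 2.97 in Mixed Het. Score and group therefore cannot be told apart in that fit, which called 118 of all tested genes in this comparison against 3428 in the main fit. Ier2 was 0.46 higher (SE 0.19, adjusted p = 0.0901, exact permutation p = 0.0303), with all 6 libraries above the C57 Het mean, and the other 8 members did not pass, with a median over the 10 of 0.03 against 0.02 for all tested genes.

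Within groups the 10 genes were high or low in the same mice. In 7 of the 22 libraries all 10 members were above the mean of their group, and in 4 libraries all 10 were below it. The libraries with all members high were C57 WT replicates 1 and 2, C57 Het replicates 1 and 4, Mixed WT replicates 2 and 3 and Mixed Het replicate 1. Those with all members low were C57 Het replicate 6, Mixed WT replicate 5 and Mixed Het replicates 5 and 6. C57 WT replicate 2 was the highest of its group for 9 members, and C57 WT replicate 5 the lowest for 7, with a mean deviation over the 10 genes of 0.59 and -0.59 on the log2(TPM + 1) scale. Mixed WT replicate 5 was the lowest for 8 members, with a mean deviation of -0.92. Mitochondrial transcripts made up 9.76% of TPM in C57 WT replicate 5. They made up 4.37% in Mixed WT replicate 5 and 4.27% in C57 WT replicate 2. They made up 8.09% in C57 WT replicate 1, with all 10 members above the group mean, and 9.76% in Mixed WT replicate 4, with 5 above. Whether the share has a part in the members' levels was not tested.

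**Figure D3:**
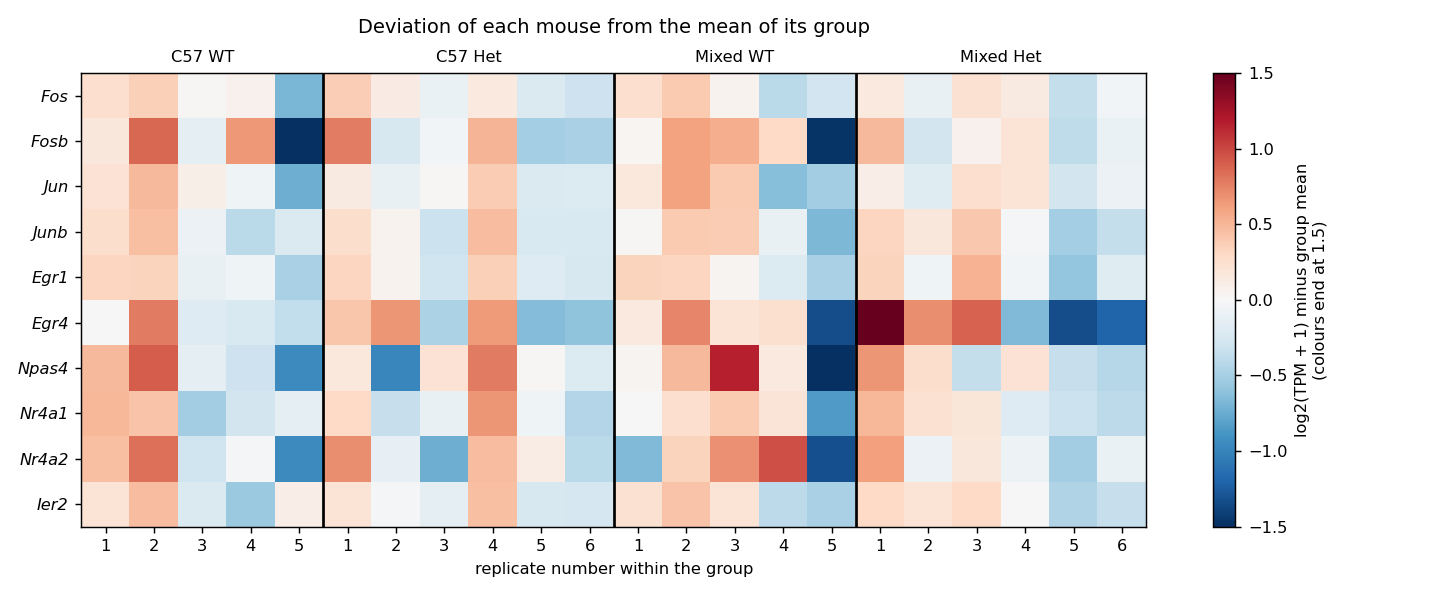
Deviation of each of the 22 mice from the mean of its group for each member (colour, log2(TPM + 1) units; columns, replicates by group; rows, genes). Whole columns are red or blue: all 10 genes are above the group mean in 7 mice and below it in 4.

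With group means removed, the correlation over the 22 mice was positive for all 45 pairs of members. Pearson's r ranged from 0.431 to 0.916 with a median of 0.718, and Spearman's rho from 0.473 to 0.935 with a median of 0.678. By permutation within groups, 42 of 45 pairs had an adjusted p of r under 0.05 and 43 of 45 an adjusted p of rho under 0.05, with 1e-05 the smallest p that the resamples can give. Junb and Ier2 had the highest r (0.916), followed by Fos and Jun at 0.894 (rho 0.870, permutation adjusted p = 9e-05). The pairs that did not pass for r were Fosb with Ier2 (0.431, permutation adjusted p = 0.0902), Jun with Nr4a2 (0.495, adjusted p = 0.0877) and Nr4a2 with Ier2 (0.447, adjusted p = 0.0803).

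Without the 2 mice farthest from the median of the first gene of each pair, the median r was 0.700 (0.478 to 0.898). The median was 0.720 over the 11 C57 mice and 0.732 over the 11 Mixed mice, with r above 0 in 45 of 45 pairs in each. It was 0.653 without Mixed WT replicate 5 and 0.760 without the 3 libraries of highest mitochondrial share. Pairs share their libraries and the TPM total, so they are not independent of each other.

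**Figure D4:**
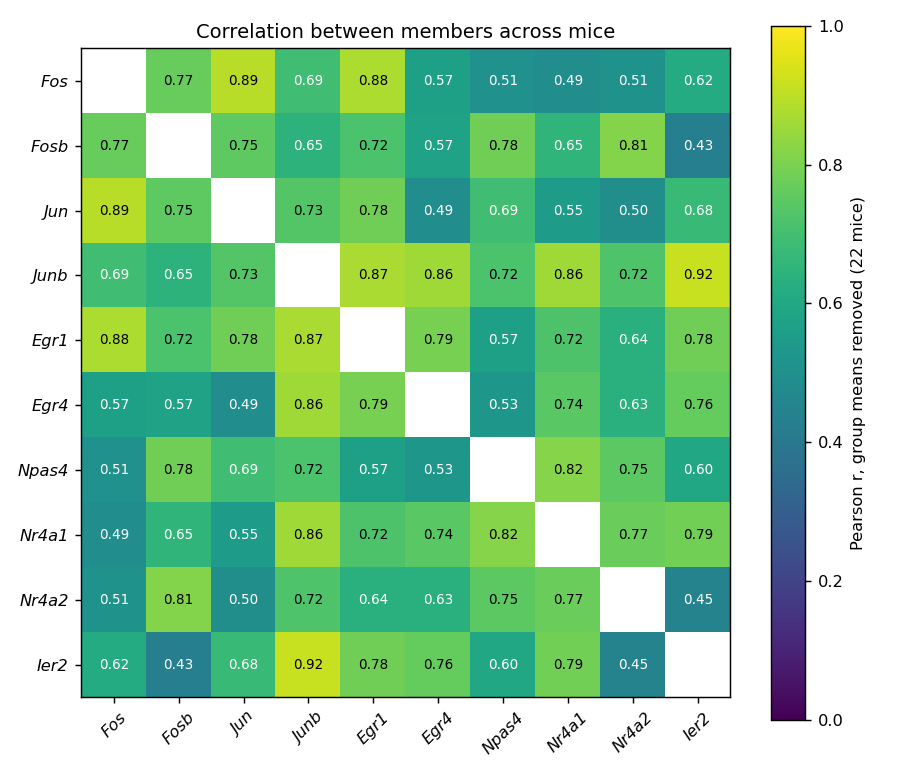
Pearson's r for each of the 45 pairs of members over 22 mice after removal of group means (rows and columns, genes; colour and number, r). The highest value is 0.92 for Junb with Ier2 and the lowest 0.43 for Fosb with Ier2.

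The genes whose pattern over the 22 mice was most like the mean of the 10 members were Phf13 (r = 0.919), Atf3 (0.897), Srf (0.893), 1700016P03Rik (0.876), Btg2 (0.865), Klf10 (0.860), Mafk (0.857), Arc (0.855), Elf3 (0.851) and Ppp1r15a (0.850), all with group means removed. The median r of all tested genes was 0.128. It was 0.649 for 20 other immediate early genes, most of them transcription factors, and 0.560 for 21 immediate early effectors and feedback inhibitors. It was 0.699 for 12 early inflammatory NF-kB genes and 0.370 for 35 genes of the upstream CREB, SRF, MEF2, calcineurin and ERK machinery. It was 0.108 for 13 heat shock and tissue handling genes. Mafa itself had an r of -0.123. Marker lists had medians of -0.254 for beta cells, 0.282 for alpha, delta and PP cells, -0.254 for endothelial, -0.143 for immune and -0.352 for mesenchymal cells. These values describe the libraries, which share the TPM total, and carry no test.

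**Figure D5:**
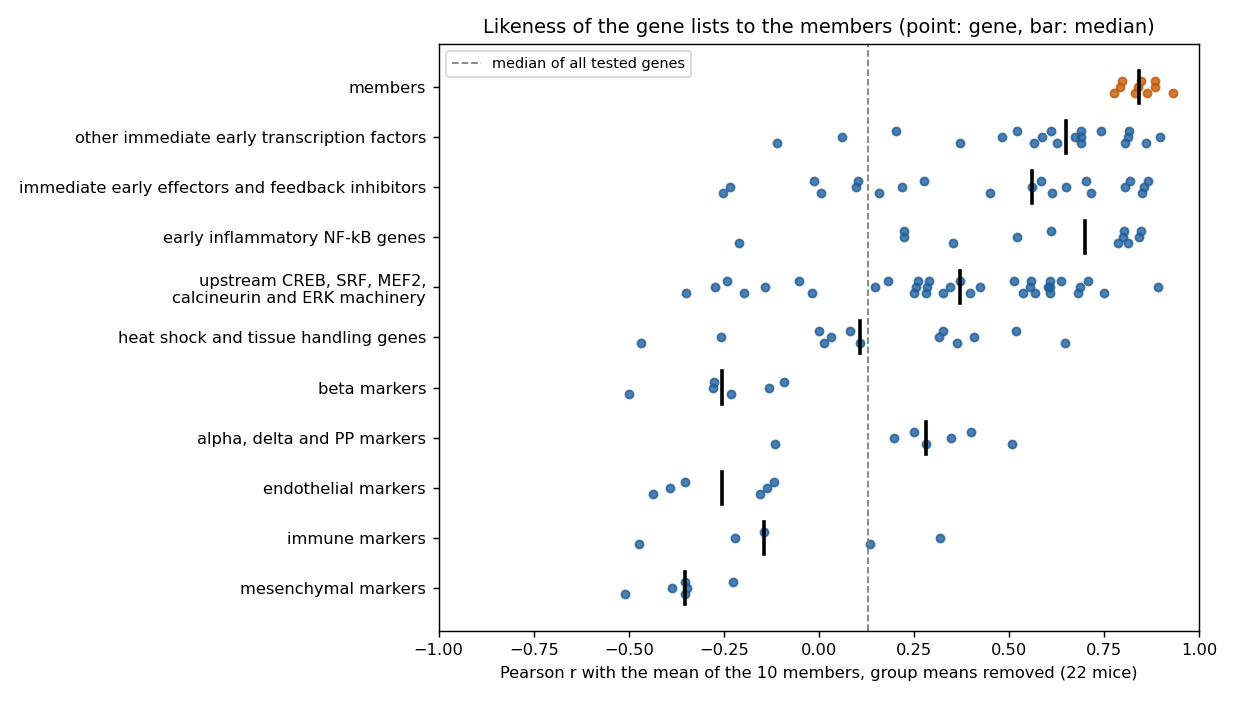
Pearson's r of each gene with the mean of the 10 members over 22 mice (points, with group means removed), by list, with the median of each list as a bar and the median of all tested genes, 0.128, as a dashed line. The members enter their own mean. The list labelled other immediate early transcription factors, not all of which are such factors, has a median of 0.649. The heat shock and tissue handling genes have one of 0.108.

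Among 20 other immediate early genes, most but not all of them transcription factors, 4 passed between Het and WT in C57. Of these 1 was higher and 3 were lower, with a list median of -0.11. That is a smaller share than the 38% of all tested genes (26.4% higher, 11.6% lower). Ier5 fell by 1.06, Klf10, a factor induced by TGF-beta, fell by 0.97, and Ier3 fell by 0.55, while Crem, whose short form represses CREB targets, rose by 0.71. In Mixed, 9 of 20 passed, 2 higher and 7 lower, with a median of -0.27, a share near the 44.1% of all tested genes (30.7% higher, 13.5% lower). Fosl1 fell by 1.597, Maff, a small MAF protein, by 1.29, the clock gene Per1 by 1.23 and Csrnp1 by 1.02 (adjusted p from 0.00385 to 0.0256). Crem rose there too, by 0.87 (adjusted p = 4.5e-08), and Egr2 by 0.79. Egr2 was the 1 gene of this list whose interaction passed (1.01, adjusted p = 0.0248). Between the backgrounds, 5 genes of the list were higher and 1 lower in Mixed WT, led by Maff at 2.05 and Fosl1 at 1.49. Among all tested genes 11.3% passed in that comparison (6.3% higher, 4.99% lower). In Mixed Het 5 were higher and 0 lower, led by Egr2 at 1.10 and Atf3 at 0.98. There 20.5% of all tested genes passed (13.3% higher, 7.13% lower).

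Effectors and feedback inhibitors are the enzymes and binding proteins that immediate early transcription makes. Of 23 such genes 21 passed the filter, and 3 were higher and 2 lower in C57 Het, with a median of -0.06, against 38% called among all tested genes. Ccn2, a matrix protein, fell by 0.87 and Gadd45g, a stress sensor, by 0.62, while Gadd45a rose by 0.46 and the synaptic scaffold Homer1 by 0.28. In Mixed 4 were higher and 5 lower, with a median of -0.10, a share near the 44.1% of all tested genes. Rgs2, which shortens G-protein signals, rose by 1.42 and Gadd45b by 1.02, while Arc, a neuronal activity gene, fell by 0.96 and Sik1, a kinase that restrains CREB coactivators, by 0.89. Spry2, an inhibitor of ERK signalling, rose by 0.25 in C57 and 0.80 in Mixed, and its interaction of 0.55 passed (adjusted p = 0.0130).

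Among 35 genes of the upstream machinery, 13 were higher and 1 lower in C57 Het, with a median of 0.10, and 7 were higher and 7 lower in Mixed Het, with a median of 0.09. Both counts were near the shares of all tested genes, 38% in C57 and 44.1% in Mixed. Map2k1, the kinase that activates ERK, rose by 0.84 in C57 and 0.80 in Mixed, and Camkk1, a kinase upstream of CaMKIV, fell by 0.70 and 0.90. Camk4 (0.60) and Rps6ka3 (0.57) rose in C57. Srf fell by 0.80 in Mixed (adjusted p = 0.00388) and was at 0.10 in C57 (adjusted p = 0.733), with an interaction of -0.90 that did not pass (adjusted p = 0.0628). Nfatc2, a calcineurin target, fell by 0.77 in Mixed. The interaction passed in 0 of the 35 by limma, against 7.36% of all tested genes.

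Of 13 heat shock and tissue handling genes, 5 were higher and 2 lower in C57 Het and 3 were higher and 2 lower in Mixed Het, with medians of 0.27 and 0.22. For these genes and the next list too, the shares of all tested genes were 38% in C57 and 44.1% in Mixed. Hsph1 rose by 0.85 and Hmox1 by 0.83 in C57, and Hspa8 by 0.97 and Hmox1 by 0.78 in Mixed, while the metallothionein gene Mt2 fell by 0.71 and 1.01. Of 12 early inflammatory NF-kB genes, 0 were higher and 1 lower in C57 (median -0.25), and 1 was higher and 4 lower in Mixed (median -0.34). Nfkbia, the inhibitor of NF-kB, fell by 0.65 and 0.85, and in Mixed Tnfaip3 fell by 1.17 and Irf1 by 1.03, while the chemokine gene Ccl2 rose by 0.68. The part of any of these lists, of the cell-type markers or of the mitochondrial share in the members' differences was not tested. The covariate fits given above cannot tell marker scores and groups apart where they go together.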

How the data were processed

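Poly(A) RNA of islets from 22 mice was sequenced, per the labels' protocols. The authors deposited 1 table of TPM with 22 value columns, each summing to 1000000, per the file headers. The submitters' processing notes name STAR 2.7.10b, MultiQC 1.7 and mm39; the annotation and the step that made the TPM are not given in the sources used here. TPM keeps no depth, so no interval or floor from counts was made, and a fall of abundant insulin transcripts raises other values.

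Genes that reached 1 TPM in 5 or more libraries were tested on log2(TPM + 1), which understates changes of low genes. limma 3.58.1 in R 4.3.3 (lmFit, eBayes with trend) fitted 4 group means, with Benjamini-Hochberg adjustment over 16756 genes and a threshold of 0.05; all adjusted p-values of differences come from it. Members also had two-sided exact permutation tests of log2(TPM + 1). Correlations used values with group means removed and 100000 permutations within groups, adjusted over 45 pairs. Data were simulated for Het against WT in C57, with genes that varied independently and 200 changed genes of 16756. There 98% of log2 changes of 2 and 84% of 1 were called, and 4.21% of calls were unchanged genes. Recovery was averaged over genes of all spreads, so it does not hold for the members in particular. Their log2 SD within groups was 0.307 (Fos) to 0.844 (Egr4), against a median of 0.204 over all tested genes.

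The members and lists were chosen with earlier results of these data known. Named genes are Mafa, the members, up to 4 of the largest called changes per list and comparison, the 10 genes most like the member mean, and markers; Crem and Egr2 in Mixed, Spry2, Srf in C57 and repeats of a gene across comparisons were named after their values were seen. Leaving out the 3 libraries of highest mitochondrial share, the correlations without Mixed WT replicate 5, and the ratios in the closing section were also chosen after seeing the data. Fits without Mixed WT replicate 5 or C57 WT replicate 5, where most members were low, raise the group means of those members by construction. Replicate numbers follow accession order, and library numbers run through the groups, so library order and group cannot be told apart.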

Additional observations from a re-analysis of the deposited data

Results flagged for a closer look

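Mixed WT replicate 5 lay far below the other libraries of its group for 2 members. Its Fosb level was 785 TPM, where the next lowest Mixed WT library had 2207 TPM, and its Egr4 level was 2.59 TPM, where the next had 8.97 TPM. The gap rule for extreme libraries was applied to 40 combinations of member and group and marked these 2, about as many as the 1 in 20 that chance gives.

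Among the lists of immediate early, upstream, heat shock and NF-kB genes, the interaction of genotype and background passed for 2 genes. It passed for 0 of the 10 members by limma, where 2 had an unadjusted p under 0.05; Fosb passed without Mixed WT replicate 5 and Jun with sample weights. Among the cell-type markers the interaction passed for 4 of 6 mesenchymal, 2 of 5 immune and 2 of 7 alpha, delta and PP genes. It also passed for 1 of 4 ductal, 1 of 4 Schwann and 1 of 6 beta-cell genes. The share of all tested genes that passed was 7.36% (4.62% above and 2.74% below 0). Egr2 had an interaction of 1.01 (limma adjusted p = 0.0248), with a change of -0.22 in C57 and 0.79 in Mixed. Spry2 had an interaction of 0.55 (adjusted p = 0.0130), with 0.25 in C57 and 0.80 in Mixed.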

How the results depend on the processing

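No paired analysis was possible because the replicate numbers follow accession order and the labels tie no mice across groups. Of 412 log2 values of members under settings other than leaving out 1 replicate, 367 kept their direction and side of the threshold, 19 newly passed, 5 no longer passed and 21 changed sign. With 1 replicate left out, 423 of 484 kept both and 38 changed sign. The cause was not tested for any of these.

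For Het against WT, members called in C57 were 2 with sample weights and 0 with the 3 marker scores as covariates. In Mixed they were 5 under median-of-ratios, quantile and abundant-gene-free scaling, with sample weights and without the 3 libraries of highest mitochondrial share. With covariates they were 0 in Mixed as well. In the covariate fit 11.1% of all tested genes passed in C57 and 16.3% in Mixed. The interaction gave 1 with sample weights. Between WT groups 1 passed with a mean TPM of at least 5, under each of the 3 scalings and with sample weights, and between Het groups 2 passed when only those samples were fitted.

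All genes called numbered 6362 in C57 (1859 with covariates, 3859 without the 3 libraries) and 7395 in Mixed (2733 with covariates). The interaction called 1233 (714 with no filter, 2628 with sample weights, 3 with covariates, 419 without the 3 libraries). The WT comparison called 1892 (1251 with a mean TPM of at least 5, 831 with those samples alone, 797 without the 3 libraries), and the Het comparison 3428 (2223 with a mean TPM of at least 5, 6572 with sample weights, 118 with covariates). In C57, 4422 higher and 1940 lower calls became 3521 and 3063 under median-of-ratios, 3680 and 2875 under quantile and 3200 and 3177 under abundant-gene-free scaling. In Mixed 5137 and 2258 became 3582 and 3745, 4221 and 3338, and 3655 and 3492, and in the interaction 774 and 459 became 702 and 1080, 930 and 896, and 807 and 782.

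Signs changed in Mixed Het against WT for Egr4 (-0.0311 median-of-ratios, -0.00437 quantile, -0.0371 abundant-gene-free, -0.32 sample weights) and Nr4a2 (-0.129, -0.0818, -0.117 and -0.00368 in that order). With covariates they changed for Fos and Junb (0.10 each), Egr1 (0.46) and Ier2 (0.51), and in the interaction for Junb (0.35) and Ier2 (0.60). Sample weights gave Nr4a1 an interaction of -0.14 and a WT difference of 0.0762. Between Het groups Fosb was -0.0530 and Junb -0.0480 under quantile scaling, Junb -0.00282 with sample weights, and Jun 0.29 and Nr4a1 0.27 with covariates.

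Leaving out 1 replicate gave 5131 to 6814 genes and 1 to 2 members in C57, 6247 to 7325 and 1 to 5 in Mixed, 771 to 1775 and 0 to 1 in the interaction, 1409 to 2376 and 0 to 5 between WT groups, and 2556 to 3583 and 1 to 1 between Het groups. Ranges that crossed 0 were, in C57, Egr1 -0.15 to 0.0537, Npas4 -0.29 to 0.18 and Nr4a2 -0.26 to 0.19. In Mixed they were Egr4 -0.25 to 0.35 and Nr4a2 -0.33 to 0.24, in the interaction Nr4a1 -0.10 to 0.24 and Ier2 -0.19 to 0.0654, and between WT groups Nr4a1 -0.25 to 0.0908. Between Het groups they were Nr4a1 -0.11 to 0.12, Fosb -0.0312 to 0.23 and Junb -0.0119 to 0.17. The number of correlated pairs was 42, with 39 under median-of-ratios scaling, 42 with a pseudocount of 0.1 and 44 without the 2 farthest mice. TPM keeps no depth, which limits what can be said of low genes such as Egr4.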

Other observations

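Ratios among the members were looked at after the data were seen and are given without a test. Of 64 pairs of a ratio and a comparison (16 ratios in 4 comparisons), 4 had groups that did not overlap, and these involve Nr4a1 and Fosb, whose single levels are given above. The levels of single genes did not overlap for 21% of all tested genes between genotypes in C57 and 23.6% in Mixed. Between backgrounds they did not overlap for 6.12% in WT and 9.85% in Het. The count of 4 in 64 is near or below these shares. Nr4a1 minus the mean of the other 9 members, on the log2(TPM + 1) scale, was between 0.09 and 1.01 in C57 WT and between -0.42 and 0.07 in C57 Het, so no library of one group reached the other. In Mixed WT it was between -0.39 and 0.04, also below every C57 WT library, and in Mixed Het it was between -0.57 and -0.17. The ratio of Nr4a1 to Egr1 in TPM averaged 0.302 in C57 WT and 0.175 in C57 Het without overlap, and 0.264 and 0.194 in Mixed with overlap.

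Fosb minus the mean of the other 9 members averaged 3.05 in Mixed WT and 1.61 in Mixed Het without overlap, and 2.24 and 1.77 in C57 with overlap. The ratio of Fosb to Fos averaged 0.793 in Mixed WT, 0.373 in C57 WT, 0.270 in Mixed Het and 0.254 in C57 Het, with overlap in all 4 comparisons. Egr4 relative to the other 9 averaged -5.09 in Mixed Het and -6.55 in C57 Het, with overlap.

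Genes running opposite to the member mean within groups included Acer2, an alkaline ceramidase (r = -0.794), Yipf2 (-0.783), Krtcap2 (-0.776) and Cyp26b1, which breaks down retinoic acid (-0.754). They were taken from the lower end of the same ranking of all tested genes and carry no test.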
